A study of Arabidopsis thaliana with 12 samples.

Results

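A set of 198 array features lay at least 2-fold lower in xrn3-8 seedlings than in Col-0 seedlings of Arabidopsis thaliana, both before cordycepin and 60 min after it. The features are Affymetrix probe sets, each a group of short probes read as 1 transcript signal. A probe set was taken when the mean of 3 xrn3-8 arrays minus the mean of 3 Col-0 arrays was -1 or lower on the log2 scale at each time. Of 22746 probe sets, 320 (1.41%) met this threshold before cordycepin, 381 (1.68%) after it and 216 (0.95%) at both times. Another 18 of the 216 were left out by name, among them berberine bridge enzyme-like, extensin and UDP-glycosyltransferase genes, which left 198 (0.87% of all). The probe annotation gives exactly 1 gene for 96 of them, all protein coding, and several genes for 5. The other 97 are unnamed here. The members were thus chosen by the measured log2 signals of all 12 arrays, and their genotype differences are given as descriptions without a test.

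Total RNA came from whole seedlings grown on MS plates in long days and harvested at 14 days. There were 4 groups of 3 biological replicates: Col-0 (labelled wild type) at 0 min, Col-0 at 60 min, xrn3-8 at 0 min and xrn3-8 at 60 min. The 60 min groups had been given 150 mg/l cordycepin, and no untreated group at 60 min is among the labels, so cordycepin, elapsed time and handling cannot be told apart. The labels give no further description of the xrn3-8 allele, and no named probe set measures XRN3, so the genotype was not checked on these arrays. Within a group the log2 signals of the arrays correlated at 0.995 to 0.998. The lower quartile of an array was 2.98 to 3.10, and a mean below the lower quartile of its arrays is treated here as near background, where a fold is a lower bound. Of 10 shoot markers only RCA (Rubisco activase) had a named probe set and of 12 root markers only PYK10, EXPA7 and EXPA18, and none of the 4 was called between genotypes before cordycepin. After it RCA was called higher in xrn3-8 (0.22 ± 0.07) and PYK10, the main beta-glucosidase of root ER bodies, lower (-0.44 ± 0.09).

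XRN3 is a nuclear exoribonuclease. In plants it removes the RNA that RNA polymerase II keeps making past the cleavage site of a transcript, a step tied to the release of the polymerase. Cordycepin is an adenosine analogue lacking a hydroxyl group, which blocks elongation of an RNA chain once it has been built in, so transcripts present at that moment are followed as they are lost. Many of the named members encode proteins that pass through the secretory pathway to the cell wall and apoplast. Class III peroxidases there oxidise phenolics with hydrogen peroxide, chitinases and glucanases cut the wall polymers of fungi, and lipid transfer-type proteins carry or display lipids. Receptor kinases with leucine-rich repeats sit in the plasma membrane above them and pass outside signals into the cell.

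For the median member, group means were 6.52 (Col-0) and 4.77 (xrn3-8) on the log2 scale before cordycepin, and 6.66 and 4.75 after it. The median difference was -1.5 before and -1.58 after, against -0.01 and 0.02 over all probe sets. Averaged over the 198 members, the log2 signal was 6.80, 6.62 and 6.69 on the Col-0 arrays before cordycepin and 6.77, 6.85 and 6.85 after it. On the xrn3-8 arrays the same average was 4.99, 5.05 and 4.96 before and 5.08, 5.0 and 5.12 after. Every xrn3-8 array was below every Col-0 array in 198 of 198 members at each time, which the choice of members favours, while the same holds for 23.6% of all probe sets before cordycepin and 19.2% after it. In whole seedlings, fewer cells of a type and less transcript per cell cannot be told apart.

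Most members were lower by a similar amount at both times. The difference after cordycepin minus the difference before it ran from -1.17 to 1.24 with a median of -0.07, and it lay within 0.5 of zero in 153 members. In 27 members the genotypes lay further apart after cordycepin by more than 0.5, and in 18 they lay closer by more than 0.5. The quartiles were -0.31 and 0.22 in the members, against -0.12 and 0.17 over all probe sets (median 0.02). Probe sets of the whole array were not counted by the same limits. These counts hold for the deposited scaling. With arrays centred on Bacillus subtilis control transcripts the median difference of the members was -1.44 before and -1.69 after. Differences of -2 or lower at both times occurred in 32 members and of -3 or lower in 8. The xrn3-8 mean was near background in 11 members at 0 min and in 11 at 60 min. In Col-0 before cordycepin, 174 members (87.9%) had a mean signal of at least 5, against 48.5% of all probe sets. Probe sets of the type that can hybridize with several genes made up 15 of the members (7.58%) and 4.66% of all.

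**Figure D1:**
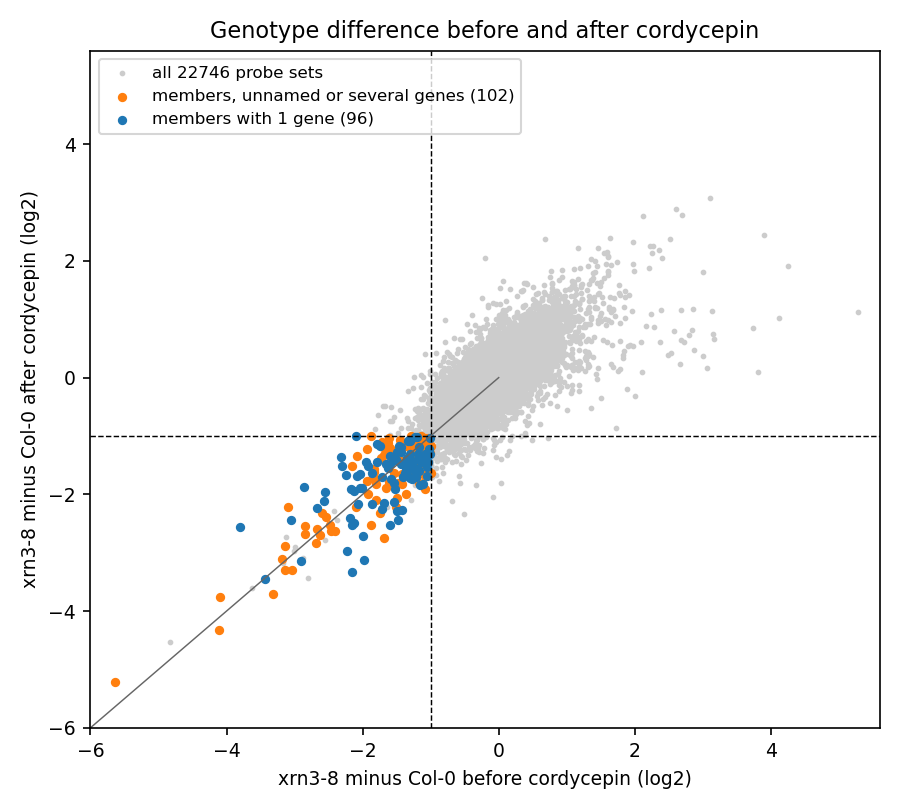
Difference of group means, xrn3-8 minus Col-0 (log2), before cordycepin on the x axis and after it on the y axis, for 22746 probe sets (grey), the 96 members with 1 gene (blue) and the 102 other members (orange). Dashed lines mark -1 on each axis and the solid line marks equal differences; the members lie along that line down to -5.64 before and -5.22 after, and grey points in the same corner are the 18 left out by name.

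At the threshold, the closest members with 1 gene inside were AT2G19130 (-1.0 before, -1.31 after), which encodes an S-locus lectin-type receptor kinase, AT5G43520 (-2.09 and -1.01) and AT1G74010 (-1.01 and -1.04), which encodes a strictosidine synthase-like protein. The closest named probe sets outside it were those of ASPGB1, an asparaginase (-1.59 and -0.99), the matrix metalloproteinase gene MMP (-0.99 and -1.16) and the cytochrome P450 gene CYP71B23 (-0.99 and -1.03). The SE of a difference of group means was 0.096 for the median probe set, so genes this close to -1 are not separated by their error. Members without a single named gene lay as close as -1.0.

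Ranked by the mean of both genotype differences, AT2G15220 stood lowest among members with 1 gene. It encodes a plant basic secretory protein. Its log2 signal was 7.48, 6.93 and 7.01 in Col-0 before cordycepin and 7.46, 7.94 and 7.91 after it, against 3.81, 3.88 and 3.44 in xrn3-8 before and 4.32, 4.36 and 4.26 after. The xrn3-8 arrays were lower by 3.43 before and 3.46 after (± 0.15, SE of the limma fit, n = 3 arrays per group, as for each difference given here), or 10.8-fold and 11-fold. Its probe set is of the type that can hybridize with more than 1 gene. AT1G64590, a short-chain dehydrogenase gene, had 7.66, 6.74 and 7.34 in Col-0 and 3.58, 3.67 and 3.08 in xrn3-8 before cordycepin. After it the arrays read 6.13, 6.08 and 6.38 in Col-0 and 3.77, 3.38 and 3.76 in xrn3-8. The distance thus went from -3.80 ± 0.19 to -2.56 ± 0.19, with lower Col-0 arrays and xrn3-8 arrays that overlap between times.

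A SABATH-type methyltransferase gene, AT5G37990, came next. This family adds methyl groups to small acids such as plant hormones. Its arrays read 7.61, 7.09 and 7.34 in Col-0 and 4.59, 4.73 and 4.0 in xrn3-8 before cordycepin, and 7.44, 7.60 and 7.30 against 3.98, 4.10 and 4.82 after it. Arrays of a genotype overlapped between the times, and the differences were -2.91 before and -3.15 after (± 0.20). A related gene near it on chromosome 5, AT5G38020, differed by -1.48 before and -2.43 after (± 0.17).

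Both lipid transfer-type genes of the AZI1 and EARLI1 kind among the members lie close together on chromosome 4, with 1 gene of the reference order between them. AT4G12490 had 9.51, 9.04 and 9.77 in Col-0 and 5.99, 5.83 and 7.33 in xrn3-8 before cordycepin, then 9.53, 9.81 and 10.01 against 7.73, 7.20 and 7.11. For AT4G12500 the Col-0 arrays read 7.66, 7.44 and 8.14 before and 7.88, 8.19 and 8.36 after, and the xrn3-8 arrays 4.86, 4.92 and 5.47 before and 6.66, 5.31 and 5.76 after. Replicates of these genes were more scattered than those of most members, and the differences were -3.06 and -2.44 (± 0.29) for AT4G12490 and -2.66 and -2.23 (± 0.26) for AT4G12500. Genes of this kind are similar in sequence, and whether their probe sets share signal was not tested.

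Peroxidase genes hold the sixth and seventh places. AT5G19890 had 7.19, 6.84 and 6.93 in Col-0 and 4.84, 5.0 and 4.45 in xrn3-8 before cordycepin, then 7.72, 7.83 and 7.93 against 4.84, 4.50 and 5.22. For AT3G03670 the Col-0 arrays read 4.73, 5.08 and 5.33 before and 5.88, 6.10 and 6.19 after, and the xrn3-8 arrays 3.0, 3.06 and 3.13 before and 3.08, 2.98 and 2.76 after. Col-0 was higher after cordycepin than before on every array of both genes, while the xrn3-8 arrays overlapped between times. The distance accordingly went from -2.22 to -2.97 (± 0.16) for AT5G19890 and from -1.98 to -3.12 (± 0.13) for AT3G03670, whose mean in xrn3-8 after cordycepin was near background.

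AT5G22555 was higher after cordycepin on every Col-0 array. Its arrays read 4.93, 4.87 and 4.89 in Col-0 before cordycepin and 6.20, 5.92 and 6.27 after it, with 2.70, 2.78 and 2.73 and then 2.60, 2.80 and 3.0 in xrn3-8. The xrn3-8 values are near background at both times, so -2.16 and -3.33 (± 0.10) are lower bounds of the distance. AT3G23190, annotated as related to hypersensitive response-like lesion inducing proteins, showed 5.93, 5.72 and 5.50 in Col-0 before and 6.85, 6.77 and 6.77 after, against 3.67, 3.79 and 3.72 and then 4.13, 3.85 and 4.27 in xrn3-8. Its distance was -1.99 before and -2.71 after (± 0.11).

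AT3G29970, which encodes a B12D-type protein, went the other way. It read 5.67, 6.01 and 5.80 in Col-0 before and 4.60, 5.16 and 5.38 after, while xrn3-8 had 3.03, 2.90 and 2.96 and then 3.19, 3.33 and 2.98. The difference of -2.86 before, with xrn3-8 near background, was -1.88 after (± 0.15). The lipid transfer-type gene AT3G58550 had 7.75, 7.20 and 7.54 in Col-0 and 5.14, 5.51 and 5.36 in xrn3-8 before, then 7.55, 7.87 and 7.95 against 5.26, 5.48 and 5.06 (-2.16 and -2.52 ± 0.15). AT3G18250 closed the list of 12 with 6.36, 6.32 and 6.67 against 4.0, 3.57 and 4.09 before and 6.09, 6.48 and 6.42 against 4.04, 3.82 and 4.80 after (-2.56 and -2.11 ± 0.20). In each of these 12 genes the Col-0 and xrn3-8 arrays did not overlap at either time, as the choice of members favours.

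**Figure D2:**
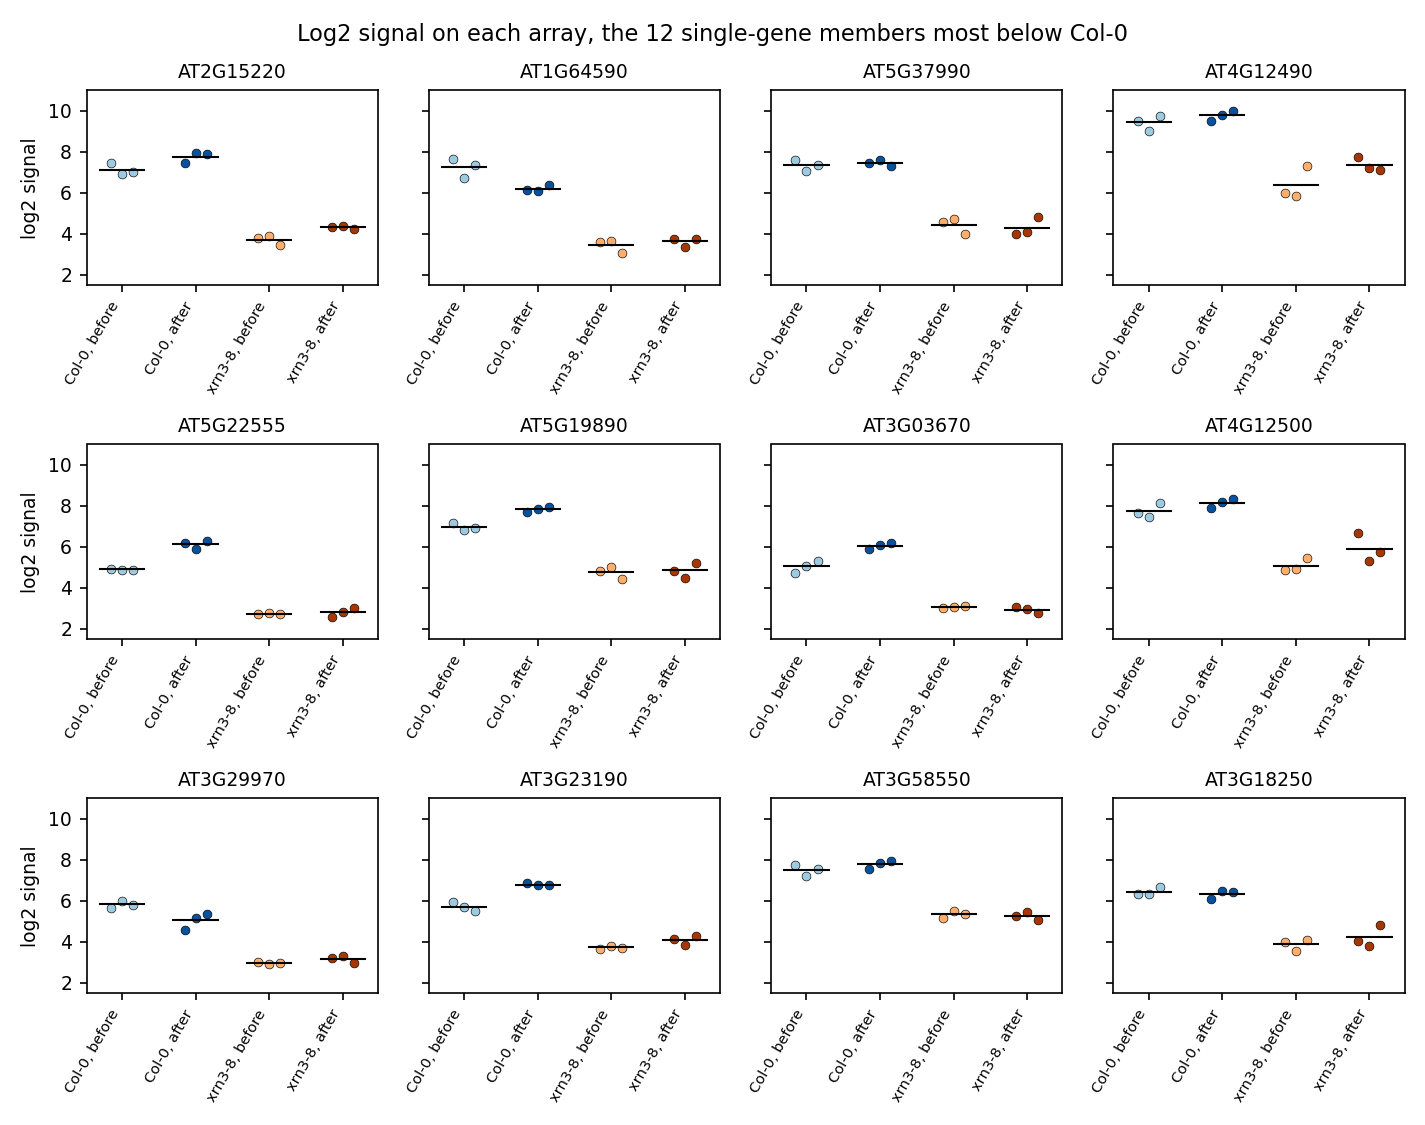
Log2 signal on each of the 12 arrays (points, replicates 1 to 3 from left to right) with group means (lines) for the 12 single-gene members lowest against Col-0. AT1G64590 and AT3G29970 come closer to Col-0 after cordycepin through lower Col-0 arrays, and AT5G22555, AT5G19890 and AT3G03670 move away through higher Col-0 arrays.

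Proteins of the cell wall and the secretory route were the most frequent kind of product among the members to which a role could be given. A role known from general plant biology was assigned to 60 of the 96 single-gene members after their values had been seen, and 29 of these 60 fell into this kind. Roles were not assigned over the whole array, so no background share can be set beside this count. The kind also pools several groups of product, so its rank depends on how the kinds were drawn. Their median difference was -1.5 before and -1.84 after. Class III peroxidases made up 8 of them, with differences of -2.22 to -1.24 before and -3.12 to -1.28 after. Beside AT5G19890 and AT3G03670 these are AT2G41480 (-2.17 and -1.90 ± 0.12), AT1G49570 (-1.72 and -2.25 ± 0.13) and AT5G06730 (-1.42 and -2.27 ± 0.12). The rest are AT5G14130 (-1.44 and -1.28 ± 0.11), AT5G64100 (-1.25 and -1.44 ± 0.10) and AT3G01190 (-1.24 and -1.60 ± 0.14). AT5G06730 read 5.16, 4.70 and 4.98 in Col-0 before and 5.80, 6.01 and 5.91 after, and 3.30, 3.64 and 3.63 followed by 3.56, 3.70 and 3.65 in xrn3-8, so it too was higher in Col-0 after cordycepin and overlapped between times in xrn3-8. AT5G64100, in contrast, was higher after cordycepin on all arrays of both genotypes, from 9.19, 9.06 and 9.25 to 10.12, 9.83 and 9.97 in Col-0 and from 7.89, 8.09 and 7.76 to 8.61, 8.37 and 8.61 in xrn3-8.

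Other peroxidase genes were measured as well. Of 73 family genes listed after the values had been seen, 55 had a named probe set. Among the 47 that are not members, 17 were called lower in xrn3-8 before cordycepin, 4 higher and 26 not called (limma, adjusted p under 0.05), where 17.6% of the whole array was lower and 14.3% higher. After cordycepin the same 47 gave 24 lower, 4 higher and 19 not called, against 15.6% lower and 16.6% higher over all probe sets. The 47 include Prx37, which met both thresholds and was left out by name; without it 16 of 46 were lower before cordycepin and 23 of 46 after. The 4 called higher after cordycepin became 2 when arrays were centred on Bacillus subtilis or hybridization controls. AT5G64120 (-1.24 ± 0.11 before, -0.93 ± 0.11 after) and AT3G21770 (-0.84 ± 0.11 and -1.54 ± 0.11) were among the lower ones and just outside the thresholds. PRX52 was lower by 0.86 before and 1.19 after (± 0.14). AT1G71695 (0.55 and 0.51, ± 0.09) and AT5G58390 (0.48 and 0.56, ± 0.11) were higher in xrn3-8 at both times. No test of the family as a whole was made.

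**Figure D3:**
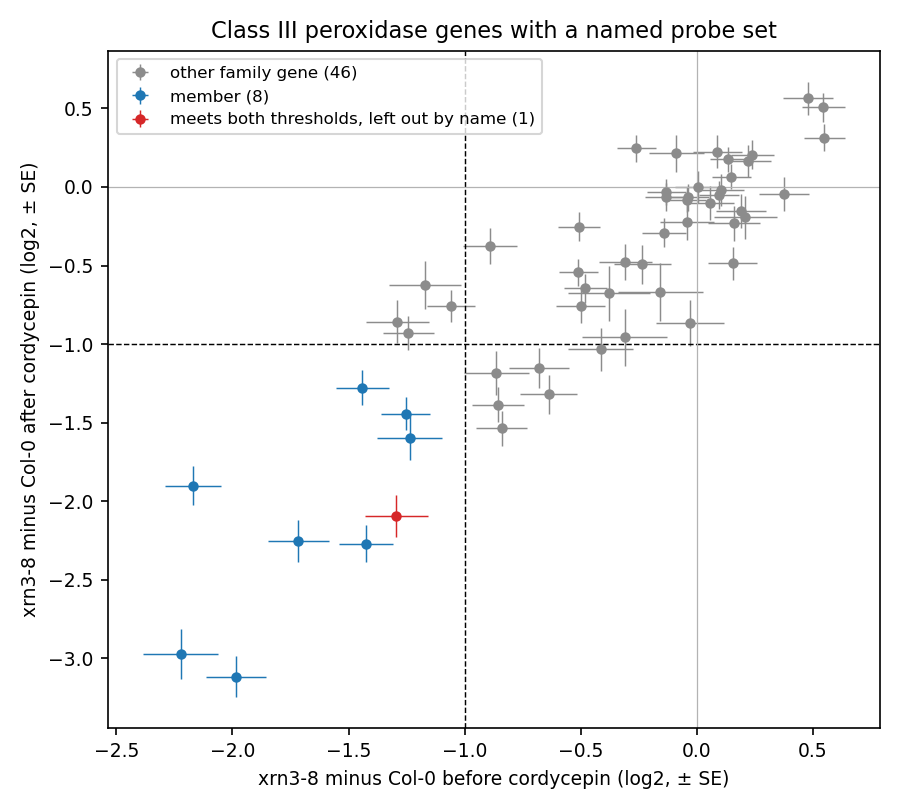
Difference xrn3-8 minus Col-0 (log2) before cordycepin (x axis) and after it (y axis) for 55 class III peroxidase genes, with bars of 1 SE. The 8 members (blue) and Prx37, which was left out by name (red), lie below -1 on both axes (dashed lines). The 46 other genes (grey) lie on both sides of zero on each axis, down to -1.54 after cordycepin. Of these 46, 16 were called lower and 4 higher before cordycepin, and 23 lower and 4 higher after it.

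Chitinases and glucanases form the next secreted group. AT4G01700 had 7.37, 7.30 and 7.23 in Col-0 and 5.49, 5.54 and 5.71 in xrn3-8 before cordycepin, then 7.25, 7.21 and 7.23 against 5.46, 5.59 and 5.52. It was thus lower by the same amount at both times (-1.72 and -1.71 ± 0.08). AT2G43610 (-1.69 and -2.15 ± 0.10), ChiC (-1.54 and -1.81 ± 0.13) and AT1G02360 (-1.39 and -1.46 ± 0.11) are the other chitinase members. AT4G16260, a beta-1,3-glucanase gene, differed by -1.16 before and -1.84 after (± 0.23). Its xrn3-8 arrays were spread most widely, at 6.95, 7.36 and 6.50 before and 5.81, 5.75 and 6.80 after. Of 24 chitinase genes listed after the values had been seen, 15 had a named probe set and 11 of these are not members. Before cordycepin 3 of the 11 were called lower and 0 higher, and after it 5 lower and 0 higher (limma). The shares over the whole array are 17.6% lower and 14.3% higher before, and 15.6% and 16.6% after. Without CHI, which met both thresholds, 2 of 10 were lower before and 4 of 10 after. The 3 are CHI, left out by name, AT2G43620 (-1.0 ± 0.15 before) and AT2G43590 (-0.46 ± 0.09 before).

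Lipid transfer-type members also include AT5G05960 (-1.5 and -2.29 ± 0.13) and AT5G01870 (-1.19 and -1.57 ± 0.10). AT5G05960 read 7.73, 7.26 and 7.37 in Col-0 before and 7.50, 7.49 and 7.47 after, with 6.01, 6.19 and 5.67 and then 5.21, 5.29 and 5.10 in xrn3-8. Its wider distance after cordycepin therefore lay on the xrn3-8 side, unlike that of the peroxidases AT5G19890, AT3G03670 and AT5G06730. AT5G23830 and AT2G16005, with an MD-2-related lipid recognition domain, differed by -1.17 and -1.61 (± 0.09) and by -1.53 and -1.91 (± 0.16).

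Protease and protease inhibitor genes were 4 members. AT1G17860, a Kunitz-type trypsin inhibitor gene, was tight between replicates, with 8.94, 8.78 and 8.98 in Col-0 and 7.07, 7.01 and 7.03 in xrn3-8 before and 8.96, 8.98 and 9.03 against 6.90, 6.78 and 6.81 after (-1.86 and -2.16 ± 0.08). SBT3.5, a subtilisin-type protease gene, differed by -1.29 and -1.5 (± 0.12). Its relative SBT3.3, no member, was higher in xrn3-8 (1.98 and 2.32). The aspartyl protease genes AT3G51330 (-1.34 and -1.60 ± 0.13) and AT5G48430 (-1.23 and -1.01 ± 0.17) complete the group.

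Smaller wall-related groups followed. Dirigent proteins guide the coupling of phenolic radicals in lignan and lignin formation, and AT3G13650 (-1.44 and -1.49 ± 0.14) and AT4G13580 (-1.18 and -1.32 ± 0.09) belong to them. Among the 13 other measured dirigent genes, listed after the values had been seen, 2 were called lower and 4 higher before cordycepin and 3 lower and 4 higher after it. Over the whole array 17.6% were lower and 14.3% higher before, and 15.6% and 16.6% after. The germin-like gene AT1G18980 differed by -1.54 and -2.13 (± 0.15) and AT3G22800, an extensin with leucine-rich repeats, by -1.49 and -1.28 (± 0.12).

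Receptor and recognition proteins were 7 members. AT1G51890, AT1G51830 and AT1G51850 belong to a run of leucine-rich repeat receptor kinase genes on chromosome 1. AT1G51890 had 4.90, 5.01 and 5.15 in Col-0 before and 5.44, 5.58 and 5.51 after, and 2.93, 2.90 and 3.01 and then 3.41, 3.11 and 3.53 in xrn3-8. Its differences were -2.07, with xrn3-8 near background, and -2.16 (± 0.10). AT1G51830 differed by -1.26 and -1.57 (± 0.15) and AT1G51850 by -1.30 and -1.09 (± 0.16). Of the 7 other measured genes of the run, 4 were called lower before cordycepin and 3 after it and 0 higher at either time (limma), though 1 was called higher before cordycepin under 6 of the alternatives run. The array shares lower are 17.6% before and 15.6% after. AT1G51840, between AT1G51830 and AT1G51850, was lower by 0.55 before and 1.1 after (± 0.11).

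AT2G28960, a further kinase of this type, differed by -1.36, with xrn3-8 near background, and -1.55 (± 0.11). AT5G18470, a curculin-like lectin gene, differed by -1.35 and -1.37 (± 0.09). AT1G72900, which has a TIR domain as found in intracellular immune receptors, read 7.76, 7.41 and 7.54 against 6.39, 6.43 and 6.56 before and 6.69, 6.94 and 6.99 against 4.86, 5.12 and 5.17 after. Its distance went from -1.11 to -1.82 (± 0.11), with lower arrays after cordycepin in both genotypes.

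Oxidoreductases and detoxification enzymes were 8 members, AT1G64590 among them. GSTU22, a tau-class glutathione transferase gene, had 6.45, 5.79 and 5.90 in Col-0 and 3.95, 3.85 and 3.95 in xrn3-8 before, then 5.99, 6.08 and 6.32 against 4.08, 4.36 and 4.12 (-2.13 and -1.94 ± 0.14). It is the only one of 11 measured tau-class genes among the members. Of the other 10, before cordycepin GSTU25 was called lower and 4 were called higher (limma), led by GSTU16 (1.44 ± 0.09) and GSTU20 (1.01 ± 0.10). After it 2 were called lower and 3 higher, and GSTU16 stood at 1.91 ± 0.09. Of the whole array 17.6% was lower and 14.3% higher before, and 15.6% and 16.6% after.

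CYP71B6, a cytochrome P450 gene, read 8.74, 8.62 and 8.73 against 7.33, 7.20 and 7.41 before and 8.57, 8.61 and 8.57 against 7.0, 6.89 and 6.97 after (-1.38 and -1.63 ± 0.08). GRX480, a glutaredoxin that binds TGA transcription factors and responds to salicylic acid, differed by -1.5 and -1.41 (± 0.18). AT5G59530, of the 2-oxoglutarate-dependent oxygenase type, went from -1.60 to -2.52 (± 0.14), with xrn3-8 near background at both times and Col-0 arrays of 4.51, 4.11 and 4.61 before and 5.46, 5.72 and 5.51 after. A second gene of that type, AT1G14120, differed by -1.06 and -1.35 (± 0.12). The berberine bridge enzyme-like gene AT1G30700, which lies apart from those left out by name, differed by -1.87 and -1.64 (± 0.11), and the copper amine oxidase gene AT3G43670 by -1.60 and -1.34 (± 0.10).

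Transferases and esterases were also 8 members. FACT, which makes caffeate esters of fatty alcohols found in root waxes, read 5.43, 5.16 and 5.37 against 4.11, 4.41 and 3.89 before and 6.07, 6.10 and 6.02 against 4.79, 4.44 and 4.76 after (-1.18 and -1.40 ± 0.12). The carboxylesterase-type genes AT1G68620 (-2.08 and -1.69 ± 0.10) and AT1G47480 (-1.14 and -1.44 ± 0.09) and the methyltransferase gene AT2G41380 (-1.5 and -1.40 ± 0.09) lay in the same range. HOS3-1, similar to fatty acid elongases, differed by -1.46 and -1.18 (± 0.16) and YLS5, of the DJ-1 family, by -1.60 and -1.48 (± 0.10).

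STR18 and AT2G21045 encode small proteins of the sulfurtransferase fold, and AT2G21045 is known as the arsenate reductase HAC1. STR18 differed by -1.27 and -1.48 (± 0.10) and AT2G21045 by -1.03 and -1.23 (± 0.11). Members of the major latex protein family were AT4G14060 (-2.12 and -2.49 ± 0.25, near background in xrn3-8 after cordycepin) and AT4G23680 (-2.04 and -1.89 ± 0.13). Cysteine- and histidine-rich C1 domain proteins were encoded by AT5G40590 (-2.24 and -1.66 ± 0.17), AT5G43520 and a dimmer pair, AT3G11370 (-1.30 and -1.32 ± 0.14) and AT2G42060 (-1.06 and -1.34 ± 0.15), both near background in xrn3-8 at each time.

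The change after cordycepin averaged over both genotypes is independent of the differences that chose the members, and it was tested with limma in all 12 arrays over 22746 probe sets. Of the 198 members, 86 (43.4%) were called higher after cordycepin, 50 (25.3%) lower and 62 were not called. The background is 56.3% called among the 22746 probe sets, with 34.7% higher and 21.6% lower. Members are brighter, with 87.9% at a Col-0 mean of at least 5 against 48.5% of all, so this background is not one of like signal. Without the dimmest 40% of probe sets, 10100 of 13646 were called, and 59.2% of these calls were higher. Of the 189 members left, 86 were then higher and 49 lower, or 63.7% of their calls higher. The median averaged change was 0.17 in the members and 0.09 over all probe sets, with members from -2.13 to 1.54. These directions hold for the deposited scaling, whose method is not given. Centring on Bacillus subtilis control transcripts put the median over all probe sets at -0.32 and left 25 members higher and 101 lower. The share of higher calls thus went from 63.2% to 19.8% in the members, and from 61.6% to 4.6% over all probe sets. Hybridization control centring (median of all -0.15) gave 39 higher and 71 lower (35.5% higher), and quantile normalization 99 and 40 (71.2% higher). Over all probe sets 16.2% and 61.9% of the calls were then higher. A centring moves all probe sets of an array alike, so it leaves the distance between both medians as it was. That distance was wider under quantile normalization (0.22 in the members, 0.06 over all) and without replicate 1 of Col-0 at 0 min (0.21 and 0.08), and narrower without its replicate 2 (0.14 and 0.08). A fall of at least 2-fold was called in 7 members (3.54%) and a rise of at least 2-fold in 3 (1.52%), where 4.1% and 0.185% of all probe sets passed.

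**Figure D4:**
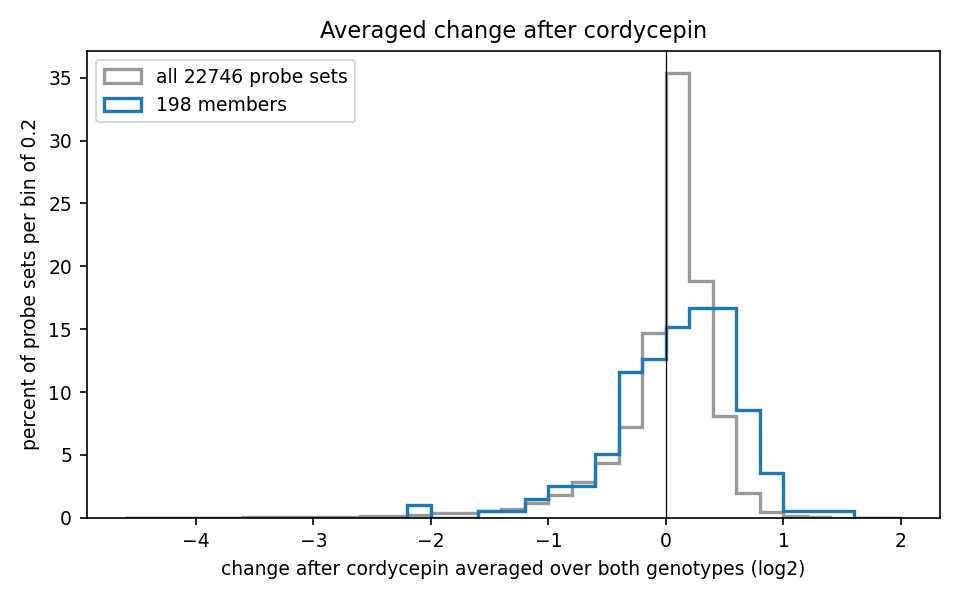
Share of probe sets (percent per bin of 0.2) by change after cordycepin averaged over both genotypes (log2), for all 22746 probe sets (grey) and the 198 members (blue). The member distribution is broader around zero, with a median of 0.17 against 0.09.

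AT5G20790 had the largest called fall of a named member. Its signal went from 8.45, 8.05 and 8.30 to 5.75, 5.85 and 5.96 in Col-0 and from 6.49, 6.57 and 6.51 to 4.68, 4.94 and 4.44 in xrn3-8, an averaged change of -2.13 ± 0.08 (limma, adjusted p = 2.59e-12). All arrays after cordycepin were below all arrays before it within each genotype. Among the members with 1 gene, GRX480 followed with 7.21, 7.07 and 7.31 against 5.84, 5.95 and 6.18 in Col-0 and 6.06, 5.58 and 5.44 against 4.20, 4.54 and 5.01 in xrn3-8 (-1.16 ± 0.12, adjusted p = 7.46e-07). Next, the TIR gene AT1G72900 fell by 1.05 ± 0.08 (adjusted p = 8.85e-09), the glycosyltransferase-type gene AT3G15350 by 1.0 ± 0.08, AT2G41380 by 0.99 ± 0.07 and the lectin gene AT5G18470 by 0.93 ± 0.06. Each of these 6 was lower after cordycepin on all arrays of both genotypes. They kept their call under each alternative run for them. Their choice as the largest called falls favours both.

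The largest called rise was that of AT5G48430, the aspartyl protease gene. Its arrays went from 6.04, 6.29 and 6.68 to 7.60, 7.81 and 7.87 in Col-0 and from 4.84, 5.07 and 5.4 to 6.60, 6.58 and 7.07 in xrn3-8 (1.54 ± 0.12, adjusted p = 1.39e-08). AT2G44010 went from 6.63, 6.14 and 6.55 to 7.75, 7.46 and 7.53 in Col-0 and from 4.71, 4.75 and 4.48 to 6.04, 6.19 and 6.18 in xrn3-8 (1.32 ± 0.09, adjusted p = 1.51e-09). Next among the members with 1 gene, the strictosidine synthase-like AT1G74010 rose by 1.17 ± 0.11, AT5G23830 by 0.95 ± 0.06, STR18 by 0.89 ± 0.07 and the receptor kinase gene AT1G51850 by 0.88 ± 0.11. These 6 also had arrays of the times apart within each genotype and kept their call under each alternative run, the control centrings included. Their choice as the largest called rises likewise favours this.

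**Figure D5:**
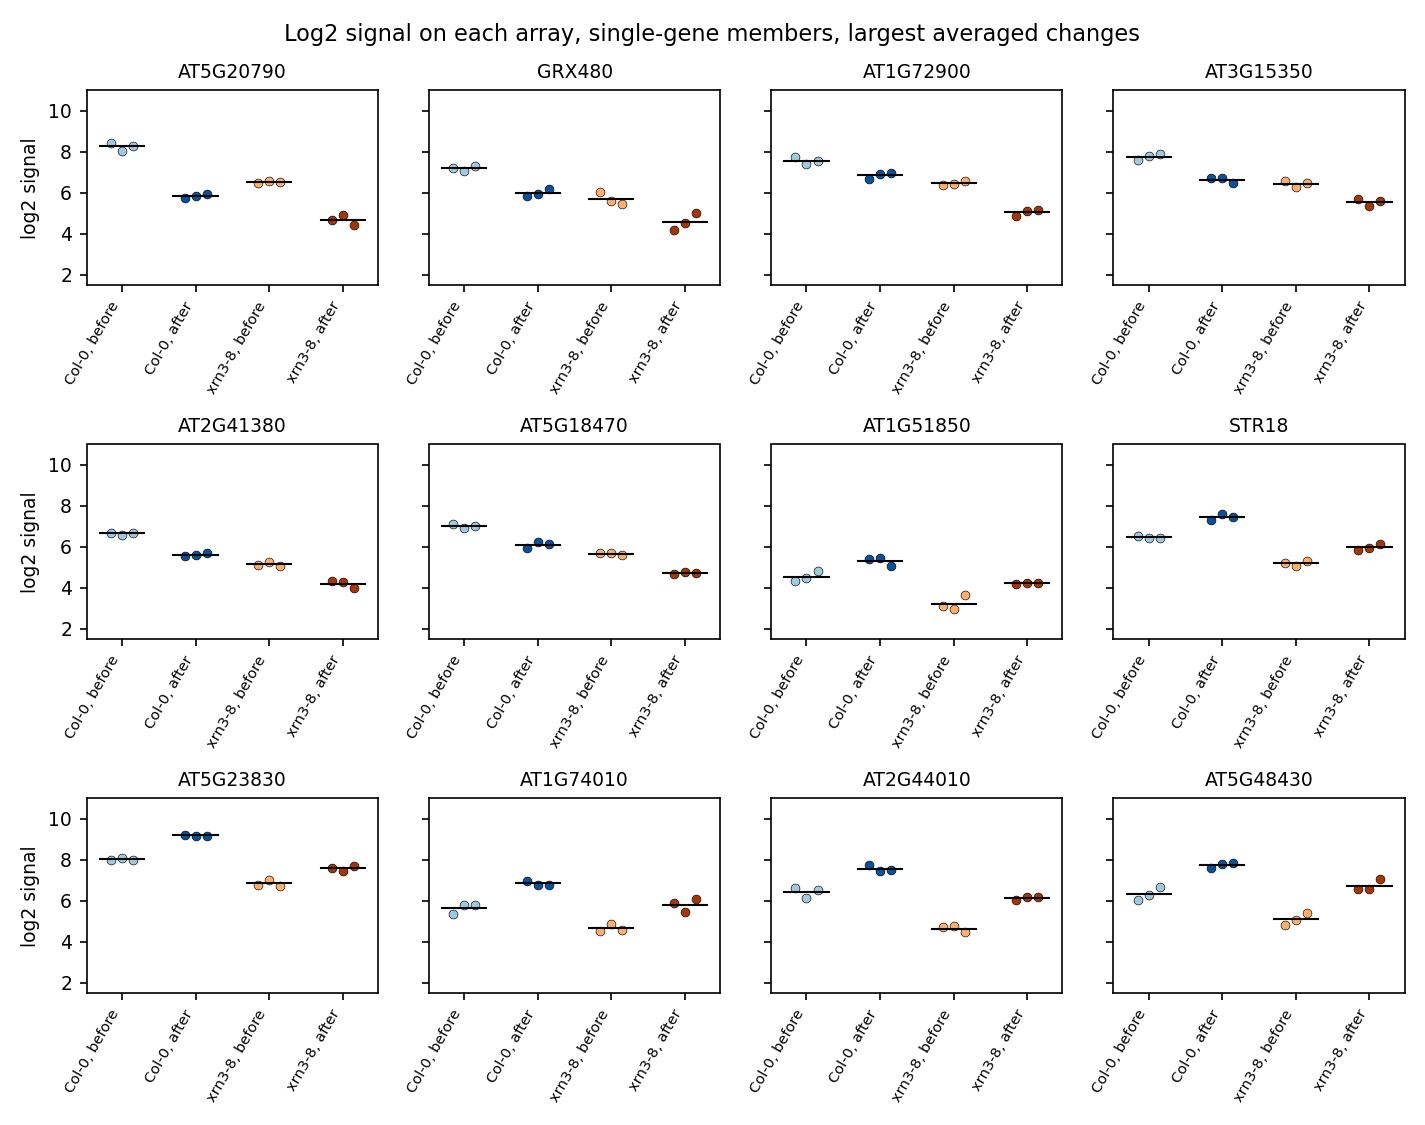
Log2 signal on each array (points, replicates 1 to 3 from left to right) with group means (lines) for the 6 single-gene members with the largest called fall and the 6 with the largest called rise averaged over both genotypes. Within each genotype the arrays after cordycepin are all below those before it in the first 6 panels, from AT5G20790 to AT5G18470, and all above them in the last 6, from AT1G51850 to AT5G48430, as the choice of these genes favours.

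By role, the averaged change is given beside the array shares of 34.7% higher and 21.6% lower, and no test of these groups was made. All counts by role are for the deposited scaling. Under Bacillus subtilis centring only 25 of the 198 members were higher and 101 lower, where 4.6% of the calls over all probe sets were higher. The 7 receptor and recognition members were 5 higher and 2 lower. Of the 8 peroxidase members 5 rose and 0 fell, AT5G64100 by 0.71 ± 0.07 (adjusted p = 5.23e-07) and AT5G06730 by 0.54 ± 0.08 (adjusted p = 3.5e-05), but under Bacillus subtilis centring AT5G64100 alone of the 5 stayed called. The 29 wall and secreted members held 13 higher, 5 lower and 11 not called. Oxidoreductases gave 2 higher and 3 lower of 8, and transferases and esterases 3 higher and 4 lower of 8. FACT rose by 0.64 ± 0.09 (adjusted p = 1.11e-05) and HOS3-1 fell by 0.84 ± 0.11 (adjusted p = 7.25e-06).

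Members were not gathered on 1 chromosome. Of the 96 with a gene, 24 (25%) lay on chromosome 1, 16 (16.7%) on chromosome 2, 18 (18.8%) on chromosome 3, 12 (12.5%) on chromosome 4 and 26 (27.1%) on chromosome 5, where the measured genes divide as 25.7%, 16.4%, 20.4%, 14.6% and 22.4%. Among these 96 none were direct neighbours in the gene order, which does not cover unnamed members or genes left out by name. The closest were AT4G12490 and AT4G12500, and AT1G51830 and AT1G51850, each 2 steps apart, then AT1G51850 and AT1G51890 at 4 steps and AT5G37990 and AT5G38020 at 5.

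Genes directly beside a member could be looked up for 65 members in 78 pairs. Before cordycepin the flanking gene was called lower in xrn3-8 in 15 of these 78 pairs (19.2%) and higher in 9 (11.5%), against 15.8% and 14.0% of the pairs of other measured genes. After it 17 pairs (21.8%) had a lower and 8 (10.3%) a higher flanking gene, against 14.1% and 15.9%. AT1G51840, lower at both times, stands in 2 of the 78 pairs. AT5G22550 beside AT5G22555 was lower by 0.73 before and 0.96 after, and AT5G19900 beside AT5G19890 by 0.74 and 0.59. The reference order carries no strand, and no test of these shares was made.

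The 97 unnamed members had a median difference of -1.53 before and -1.61 after, close to those with 1 gene (-1.5 and -1.57). The lowest of all members is among them. Probe set 245567_at, singled out after its values were seen, read 9.11, 8.77 and 8.98 in Col-0 before and 8.89, 9.36 and 9.22 after, and 3.28, 3.47 and 3.19 followed by 4.22, 3.72 and 3.86 in xrn3-8. It was lower by 5.64 before and 5.22 after (± 0.14), or 49.9-fold and 37.4-fold. Probe set 259481_at, chosen in the same way, differed by -4.11 and -4.33 (± 0.11). Of the unnamed members 39 were called higher and 25 lower in the averaged change after cordycepin, shares of 40.2% and 25.8%. The shares were 45.8% and 24.0% in the members with 1 gene, and 34.7% and 21.6% over all probe sets.

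Other pathways could be read only in part. Of 184 genes in 12 lists of defence, root, uptake and tissue marker genes, 26 had a named probe set, and 5 of these were called lower and 5 higher in xrn3-8 before cordycepin and 10 lower and 4 higher after it (limma). Over the whole array 17.6% were lower and 14.3% higher before, and 15.6% and 16.6% after. Of these 26, GSTU22 alone is a member, and its lower call at each time is favoured by the rule that chose it. The 26 include the 11 tau-class glutathione transferase genes described above. Those 11 supplied 2 of the lower and 4 of the higher calls before cordycepin, and 3 of the lower and 3 of the higher calls after it. Without GSTU22 the other 10 gave 1 lower and 4 higher before, and 2 lower and 3 higher after. Most of the higher calls thus came from that 1 family. Among 5 measured genes of root ER bodies, 1 was called lower before cordycepin and 4 after it, with 0 higher at either time. The jacalin-related lectin gene JAL34 was lower at both times (-0.66 ± 0.09 and -1.03 ± 0.09). NAI1, the transcription factor of ER body formation, was called only after cordycepin (-0.81 ± 0.13), as were PYK10 (-0.44 ± 0.09) and NAI2 (-0.25 ± 0.08). Among 5 terpene genes, TPS-CIN, a cineole synthase gene, was lower at both times (-0.74 and -0.73, ± 0.12). AT5G47980, of the same list, was called higher before cordycepin (0.38, adjusted p = 0.00743) and lower after it (-0.95). The salicylic acid list was measured by WRKY53 alone (-0.07 ± 0.13 before, not called, and -0.49 ± 0.13 after, adjusted p = 0.0101) and the jasmonate list by JMT alone, not called at either time.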

How the data were processed

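Total RNA was hybridised as biotinylated cRNA to 12 one-colour Affymetrix arrays. The values the authors deposited are log2 signals with 2 decimals (1.74 to 13.22). The methods of background correction, normalization and probe summary are not given in the sources used here. The tools named are affy 1.48.0 and limma 3.26.9, per the submitters' processing notes. Of 22810 probe sets, 64 controls were left out. Array medians were 4.63 to 4.87, and the number of arrays limits the precision.

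The 4 group means were estimated jointly from the 12 arrays (lmFit and eBayes of limma 3.58.1, R 4.3.3), with 8 residual and 7.964 prior degrees of freedom. Contrasts were two-sided, adjusted by Benjamini and Hochberg over 22746 probe sets, and called at an adjusted p under 0.05. The fit was tested on simulated data. The averaged change after cordycepin is the mean of the Col-0 and xrn3-8 changes; its median SE was 0.0678. Values were rounded before deposition, so a tolerance of 1e-06 was used at the -1 thresholds. Genes come from the platform's probe annotation (1 gene for 13513 probe sets, several for 503, 8730 unnamed here), updated through the TAIR10.1 gene table. Chromosome and start coordinate in that gene table gave the gene order, and no sequences were used. Python 3.11.15 and pandas 2.3.3 were used for counts.

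The members and gene lists were chosen with earlier results of these data known. Roles and the lists of peroxidases, chitinases, the kinase run, major latex and dirigent proteins were written after the values were seen. Named are the 12 members lowest against Col-0, those with a symbol, those in a list, the 6 largest called falls and rises after cordycepin, the 3 nearest the threshold on each side, near neighbours, members with a role, and up to 4 genes of a list or family with large changes. Alternatives covered a replicate block, a signal-dependent prior, array weights, dim or cross-hybridizing probe sets, 3 other scalings, other thresholds and leaving out each array.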

Additional observations from a re-analysis of the deposited data

Results flagged for a closer look

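AT5G43520, a C1 domain gene, moved in opposite directions in the genotypes after cordycepin in the values as deposited. These directions hold for the deposited scaling, whose method is not given. Bacillus subtilis centring moved the median averaged change over all probe sets from 0.09 to -0.32. The changes of this gene within each genotype are not given under that centring, so its rise in xrn3-8 rests on the deposited scaling. In Col-0 its log2 signal was 7.46, 7.38 and 7.46 before and 6.81, 6.74 and 6.79 after (-0.65). In xrn3-8 it was 5.31, 5.43 and 5.29 before and 5.92, 5.63 and 5.77 after (0.43). Every Col-0 array after cordycepin was below those before it and every xrn3-8 array above, and the difference between the changes was not tested, since the same arrays chose the member.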

How the results depend on the processing

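The count of members ran from 190 to 205 when 1 array was left out. It was 183 without cross-hybridizing probe sets, 196 with Bacillus subtilis centring, 220 with hybridization control centring, 183 with quantile normalization and 169 with a Col-0 mean of at least 5. Thresholds of -1.5 and -0.8 gave 74 and 332. Calls of the averaged change ran from 85 to 95 higher and 44 to 51 lower without 1 array. They were 25 higher and 101 lower under Bacillus subtilis centring and 39 higher under hybridization control centring, against 86 and 50 as deposited. Of the calls over all probe sets, 16.2% were higher under hybridization control centring, 4.6% under Bacillus subtilis centring and 61.6% as deposited. Bacillus subtilis centring turned the sign of 9 named members called under at least 1 of these 2 settings, AT3G58550 (-0.29), AT3G18250 (-0.30), AT2G41480 (-0.30), AT2G43610 (-0.14), ChiC (-0.29), AT3G43670 (-0.30), AT5G14130 (-0.27), AT1G47480 (-0.014) and AT1G14120 (-0.38); as deposited, AT2G43610 and AT1G47480 of these had been called. A further 17 named members lost their call under this centring and 11 gained one. Among those 11, AT1G18980, at zero as deposited, was called at -0.40. Genes of the 12 lists called lower before cordycepin went from 5 to 3 without dim probe sets, with 15 left to test.

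The replicate numbers were not taken to pair the samples. Deviations of arrays with the same number correlated at -0.09 to 0.11 for number 1, -0.04 to 0.04 for number 2 and -0.01 to 0.18 for number 3. With 3 arrays per group these values do not settle whether the samples were paired. With the replicate number as a block 90 members were higher and 51 lower, and the list counts were 5 lower and 5 higher before cordycepin and 10 lower and 4 higher after it.

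Leaving out 1 array ended the averaged call, still lower, in AT3G29970, AT1G68620, YLS5, AT5G42830, AT4G16260 or AT3G13650, whose values then ran from -0.37 to -0.18, -0.24 to -0.16, -0.22 to -0.13, -0.44 to -0.22, -0.65 to -0.37 and -0.40 to -0.23, and made calls of GSTU22, AT4G14060, AT5G40590, AT3G11370 or AT5G43520. Signals near background limit the size of the differences there.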

Other observations

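Some genes next to or related to members were higher in xrn3-8. AT1G65490, directly beside the member AT1G65500 (-1.66 before, -1.48 after), was higher by 1.63 before cordycepin and 2.40 after it (limma, adjusted p = 2.02e-09 and 3.32e-11). AT1G14130, beside the member AT1G14120, was higher by 0.68 and 0.46 (adjusted p = 4.94e-05 and 0.00163). In the major latex protein family, AT1G14960 was higher by 1.77 ± 0.20 before and 1.45 ± 0.20 after, whereas the members AT4G14060 and AT4G23680 were lower; of the 14 measured relatives that are not members, 3 were called lower and 3 higher before, and 5 lower and 3 higher after, where the array gave 17.6% and 14.3%, then 15.6% and 16.6%. Among dirigent genes, AT4G38700 was higher by 1.06 and 0.88 (± 0.11). These genes were chosen after their values were seen.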
